A study of Mus musculus with 8 samples.

Results

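Contact hubs of RNA polymerase II are described here in mouse embryonic stem cells of the male, blastocyst-derived E14 line that lack Klf4 (KO). A hub is a KO anchor with 10 or more different partner anchors, where a partner is another anchor joined to it by at least 2 paired-end tags (PETs). By this rule 1458 anchors were hubs, out of 13784 anchors with at least 1 partner and 18293 anchors in all. The hubs were chosen by their partner numbers in the KO contact map, so their partner and PET counts below describe the selection and are not tested.

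The contacts came from HiChIP for RNA polymerase II, in which chromatin ends that lie close together are ligated, fragments bound by the polymerase are pulled down, and the joined ends are sequenced. Unmodified cells (WT) and KLF4-KO cells were each measured with 2 RNA-seq libraries and 2 HiChIP samples. The HiChIP data were analysed as 1 pooled contact file per genotype, and whether the KO cells stem from 1 clone or several was not given in the sources used here. All samples share their culture labels: serum at 15%, in one medium with 10 ng/mL LIF, the MEK inhibitor PD0325901 at 1 µM and the GSK3 inhibitor CHIR99021 at 3 µM, and in the other with 1000 U/mL LIF. Which medium each sample saw is not given, and no allele or agent beyond the Klf4 knockout is named for the KO cells.

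RNA polymerase II transcribes protein-coding genes and many noncoding RNAs, and it gathers at active promoters and enhancers. Contacts between such sites bring regulatory elements near the genes they act on, and active genes that neighbour each other often share contacts. KLF4 is a zinc finger transcription factor of the pluripotency network that binds GC-rich and CACCC-like DNA.

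The KO file held 401726 PETs and the WT file 35189, so the absence of a contact from the WT pool cannot be told apart from shallow sampling. RNA-seq gene counts ran from 8287497 to 9762190 per library. Klf4 had 2882 and 2421 counts in WT and 0 in both KO libraries, at least 1594-fold lower (edgeR, false discovery rate (FDR) 1.9e-04). All 10 embryonic stem cell markers were detected in every library, with summed levels between 6718.5 and 8738.3 CPM (TMM-scaled counts relative to library size). Summed fibroblast and feeder markers reached 5.53 and 5.98 CPM in WT and 12.1 and 9.95 CPM in KO (2 of 10 members tested, 2 at 0 counts), and their part in the results below was not tested. Primitive endoderm markers summed to 4.38 to 7.91 CPM (3 of 7 tested) and neural markers to 39.7 to 63.0 CPM (5 of 7 tested, 1 at 0 counts). Single markers were called by edgeR: Pax6 and Map2 higher and Nes lower in KO among the neural ones, Gata6 higher among the endoderm ones, and Utf1 and Lin28a higher among the stem cell ones. Their part in the results below was not tested either. The start of Klf4 lies in no KO anchor that had a partner.

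Promoters at leading hubs and at hub genes with large expression differences are shown first, as examples of the DNA at these sites. Each runs 5′ to 3′ from 150 bases before to 30 bases after the gene's start, from RefSeq (GRCm38.p6). Capitals mark GC boxes, the letters GGGCGG or their reverse complement CCGCCC, which SP and KLF proteins are known to recognise. Eif4a1 (chr11:69672394-69672573, minus strand), an RNA helicase of translation initiation, starts in the hub with most partners. Tbc1d10b (chr7:127208439-127208618, minus strand), which acts on RAB GTPases, and the zinc finger gene Zfp553 (chr7:127232911-127233090, plus strand) share the second hub. Lasp1 (chr11:97799415-97799594, plus strand), an actin-binding protein, starts in the fifth.
Eif4a1: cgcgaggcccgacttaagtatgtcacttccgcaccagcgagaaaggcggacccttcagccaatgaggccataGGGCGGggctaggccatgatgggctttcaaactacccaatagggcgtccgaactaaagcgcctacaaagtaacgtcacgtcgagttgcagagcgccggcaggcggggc
Tbc1d10b: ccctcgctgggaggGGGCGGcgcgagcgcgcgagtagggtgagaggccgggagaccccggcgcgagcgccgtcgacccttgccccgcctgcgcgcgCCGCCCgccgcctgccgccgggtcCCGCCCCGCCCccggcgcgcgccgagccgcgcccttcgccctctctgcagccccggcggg
Zfp553: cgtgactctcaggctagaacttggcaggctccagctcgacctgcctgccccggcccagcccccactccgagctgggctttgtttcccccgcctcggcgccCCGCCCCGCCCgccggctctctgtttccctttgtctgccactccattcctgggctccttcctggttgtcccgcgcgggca
Lasp1: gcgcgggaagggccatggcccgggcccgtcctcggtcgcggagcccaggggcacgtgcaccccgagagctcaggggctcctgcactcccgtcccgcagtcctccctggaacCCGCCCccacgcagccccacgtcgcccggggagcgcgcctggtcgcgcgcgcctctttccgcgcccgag

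Of hub genes that differed between genotypes, H2ac10 (chr13:23533725-23533904, plus strand) encodes a histone H2A, and Halr1 (chr6:52102799-52102978, plus strand) is a long noncoding RNA beside the Hoxa cluster. Both were higher in KO. Nynrin (chr14:55853965-55854144, plus strand) and the gamma-synuclein gene Sncg (chr14:34374640-34374819, minus strand) were lower.
H2ac10: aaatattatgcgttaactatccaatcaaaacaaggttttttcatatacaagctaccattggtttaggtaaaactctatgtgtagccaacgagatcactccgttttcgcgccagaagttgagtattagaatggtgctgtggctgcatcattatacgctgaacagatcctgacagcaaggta
Halr1: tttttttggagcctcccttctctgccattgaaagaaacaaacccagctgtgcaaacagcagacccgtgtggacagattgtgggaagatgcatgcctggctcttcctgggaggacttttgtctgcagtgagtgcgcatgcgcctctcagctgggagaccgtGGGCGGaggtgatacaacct
Nynrin: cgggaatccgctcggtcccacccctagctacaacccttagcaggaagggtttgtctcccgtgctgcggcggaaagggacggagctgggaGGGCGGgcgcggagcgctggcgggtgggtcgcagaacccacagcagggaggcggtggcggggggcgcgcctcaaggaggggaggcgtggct
Sncg: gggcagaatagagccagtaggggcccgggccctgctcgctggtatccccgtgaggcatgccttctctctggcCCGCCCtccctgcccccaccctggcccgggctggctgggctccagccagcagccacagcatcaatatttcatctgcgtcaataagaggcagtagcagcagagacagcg

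The stretch shown for Tbc1d10b holds 4 GC boxes and that for Zfp553 holds 2. Those of Eif4a1, Lasp1, Halr1, Nynrin and Sncg hold 1 each, and that of H2ac10 holds none. None of the 8 stretches holds the KLF letters GGGNGTGG on either strand. Over the full RefSeq windows of 250 bases before to 50 after the start, GC content ran from 40.7% at H2ac10 to 80.3% at Tbc1d10b.

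Hubs had a median of 12 partners (range 10 to 58), against 3 for the other partnered anchors. Most sat near the threshold: 986 hubs (67.6%) had 10 to 14 partners, 310 had 15 to 19, and 162 had 20 or more. Partner numbers fall off smoothly across the threshold. The 348 anchors with 10 partners had a median of 49 PETs and a width of 4940.5 bp, and the 379 anchors with 9 partners had 42 PETs and 4557 bp.

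**Figure D1:**
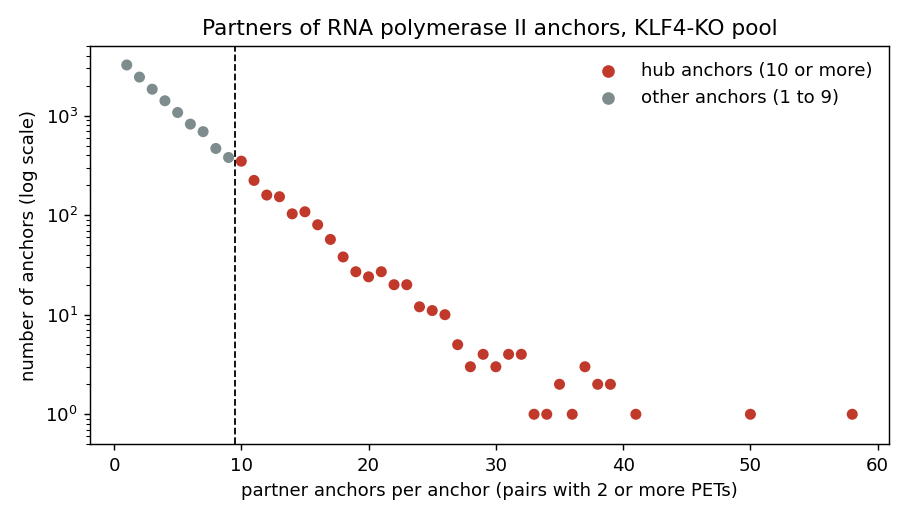
Number of KLF4-KO anchors (log axis) at each number of partner anchors, where a partner shares 2 or more PETs. Red points are the 1458 hubs and grey points the 12326 other partnered anchors; the counts fall without a break at the dashed threshold, and 1 anchor reaches 58 partners.

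A hub shared a median of 72 PETs with its partners, against 9 for the other anchors. The strongest pair held 25.5% of a hub's PETs (median), against 51.4% at the other anchors. This share depends on the number of partners, which the rule set. It was 26.7% at anchors with 10 partners and 29.3% at those with 9 (medians). Hubs were also wide and lay among many anchors. The rule did not use width, but partners within 500 kb are themselves counted as neighbours. Their median width was 6560.5 bp against 2976 bp, and a median of 28 other anchors lay within 500 kb of a hub against 16. Hubs contacted 42.3% of those neighbours (median), and the other anchors 17.6%, shares that rest on the partner counts. Anchors with 10 and with 9 partners both had a median of 26 neighbours, of which 35.7% and 33.3% were contacted (medians). PETs joining an anchor to itself, which the rule left out, numbered 27 at a hub and 3 elsewhere (medians).

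Width moved with partner number. Across the 13784 partnered anchors, Spearman's rho was 0.41 between partners and width and 0.53 between partners and anchors within 500 kb, as descriptions of 1 library pool in which all 3 share its depth. Anchors were split into 4 classes of equal size by width. In the narrowest class (1295 to 2357 bp) 1.48% were hubs, followed by 2.61% and 6.76%, and in the widest (4429 to 66180 bp) 31.5% were. Within each class hubs had more neighbours than the other anchors, with medians of 35 against 17 in the narrowest and 27 against 14 in the widest. The partner rule itself favours anchors with many neighbours. The part of anchor width in the hub calls was not tested.

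**Figure D2:**
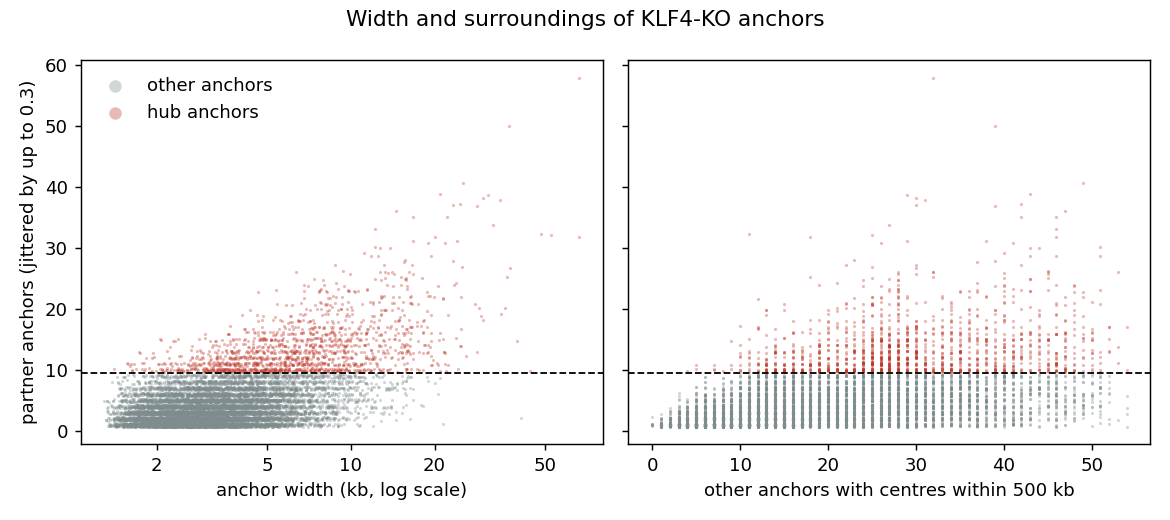
Partner anchors (jittered by up to 0.3) against anchor width in kb on a log axis (left) and against the number of other anchors centred within 500 kb (right), 1 point per partnered KLF4-KO anchor. Hubs (red) lie above the dashed threshold and reach farther to the right in both panels than most other anchors (grey), with median widths of 6560.5 and 2976 bp.

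Hub contacts stayed mostly within a megabase. The median partner of a hub was 93.9 kb away and the farthest 626 kb (medians over hubs), against 55.0 and 149 kb for the other anchors. The farthest of many partners tends to lie farther than the farthest of few. At anchors with 9 partners the same medians were 67.4 and 381 kb. All partners lay within 1 Mb for 944 hubs (64.7%), while 176 hubs (12.1%) had a partner over 10 Mb away.

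Hubs contacted each other. Of 30928 pairs kept, 15483 (50.1%) involved a hub, and these held 60.8% of the PETs. A total of 1408 hubs (96.6%) had at least 1 hub among their partners, with a median of 6, and 50 had none. Among the other anchors 4892 (39.7%) contacted a hub. By the rule hubs have more partners, and so more chances to contact a hub. These shares therefore describe the selection and cannot be compared as a preference. The 4889 pairs between hubs had a median distance of 112 kb and up to 218 PETs. Pairs between a hub and another anchor spanned a median of 89.6 kb, and pairs between other anchors 43.6 kb. Of these last pairs 30.2% spanned less than 20 kb, against 11.3% of the pairs between hubs.

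Hubs were unevenly spread over the chromosomes. Chromosome 11 held most, with 219 hubs or 17.4% of its partnered anchors, followed in share by chromosome 7 (175 hubs, 16.9%), chromosome 17 (113 hubs, 15.2%) and chromosome 19 (58 hubs, 14.3%). The lowest shares were on chromosome 14 (18 hubs, 3.59%) and X (1 hub of 207 partnered anchors, 0.483%). None of 4 partnered anchors on Y was a hub.

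**Figure D3:**
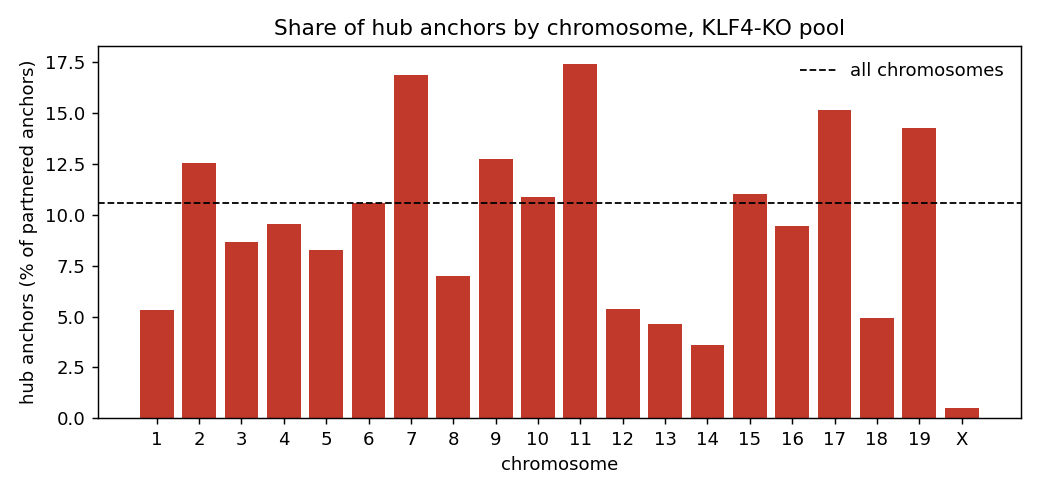
Hubs as a percentage of the partnered anchors of each chromosome in the KLF4-KO pool, with the dashed line at the 10.6% over all chromosomes. Chromosomes 11 and 7 stand highest at 17.4% and 16.9%, and X lowest at 0.483%; Y, with 4 partnered anchors and no hub, is not drawn.

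Hubs also came in runs. Joining hubs whose centres lay within 100 kb gave 517 runs. Single hubs made up 280 of them, and 90 runs of 5 or more held 802 hubs (55.0%). The other anchors were not joined in this way, and hubs lie where anchors are dense. Whether runs are particular to hubs was therefore not tested. The run with most hubs, chr7:27186513-27808737, had 27 hubs among 41 anchors and holds the starts of Akt2, a kinase of insulin signalling, Numbl, Sertad1 and the splicing factor gene Snrpa. Of its 351 possible hub pairs, 160 (45.6%) were in contact.

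The second run, chr19:8702088-9083517, packed 26 hubs among 28 anchors, with 65.2% of the hub pairs in contact. It holds Slc3a2, a subunit of amino acid transporters, the mRNA export factor Nxf1, the small nucleolar RNA host gene Snhg1 and Ahnak. A run on chromosome 16 (20 hubs, chr16:20298909-20719966) holds the translation factor Eif4g1, the polymerase subunit Polr2h and the proteasome subunit Psmd2. Contact was densest at chr2:165787932-166159628, among the 12 runs with most hubs: 85.8% of the pairs among its 16 hubs, around the heparan sulfatase gene Sulf2 and the chromatin reader gene Zmynd8.

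The hub with most partners, chr11:69654353-69720532, spanned 66.18 kb and had 58 partners and 584 PETs. It covers the starts of Cd68, Eif4a1, Mpdu1, Senp3, Sox15, Tnfsf13 and Tnfsfm13. Its strongest pair had 90 PETs, 53.3 kb away at Fxr2, and its other partners hold Polr2a, Eif5a, Dvl2 and the ribosomal protein genes Rpl23, Rpl26 and Rpl27. It is a wide anchor, with 1223 PETs within itself.

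The second hub, chr7:127204212-127241410, had 50 partners and 534 PETs, of which 175 went to Cd2bp2, 25.9 kb away. Its partners include the starts of Setd1a, a histone H3 lysine methyltransferase, the zinc finger factor Maz, the chromatin remodeller Srcap and the glycolytic enzyme Aldoa. The third, chr9:21450626-21475964, lies inside Dnm2, the dynamin of endocytosis, with 41 partners that include the maintenance DNA methyltransferase Dnmt1, the remodeller Smarca4 and the stress sensor Keap1. All its partners lay within 0.765 Mb.

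A hub need not hold a listed gene start. The fourth, chr11:62485057-62516197, lies in the span of Pigl and has none, yet had 39 partners and 818 PETs, the most PETs of any hub. Its strongest pair, with 218 PETs, went 39.4 kb to the anchor at Ncor1, a nuclear receptor corepressor, and Pigl. The fifth, at Lasp1, also had 39 partners, with 300 PETs. The sixth and seventh lie at Mcl1, a BCL2-family survival protein (38 partners), and Sp1, a GC-box binding factor (38 partners).

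Leading hubs differed in how they reached their partners. At Zfp57, which keeps imprinted regions methylated, 20 of 32 partners lay over 1 Mb away and only 11 anchors within 500 kb. At Ptges (36 partners), the third hub and the hub at Arih2 and Slc25a20 (35 partners), 47, 49 and 46 anchors lay within 500 kb. The hub at Mkrn1, a ubiquitin ligase gene, was 65.992 kb wide with 1677 PETs within itself, and only 3 of its 32 partners were hubs. The hub at Sertad1 was 12.201 kb wide with 71 PETs within itself, and 25 of its 33 partners were hubs.

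Gene starts lay in 765 hubs (52.5%), against 5096 of the other anchors (41.3%). These shares count RefSeq starts with a promoter window, and starts on chromosome 18 were not analysed here. More than 1 gene started in 17.6% of hubs and 8.59% of other anchors, 33.9% and 38.3% lay in the span of a coding gene without holding a start, and 13.6% and 20.3% lay outside such spans.

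The difference in gene starts went with width. In the widest class 54.8% of hubs and 42.1% of other anchors held a start. In the middle classes the shares were 44.4% against 45.6% and 51.9% against 49.3%, and in the narrowest 19.6% of 51 hubs against 29.1%. Gene starts were more frequent at hubs with more partners, in 49.2% of hubs with 10 to 14, 56.1% with 15 to 19 and 65.4% with 20 or more. Their median widths were 5530.5, 7842 and 12997 bp in the same order. At the partner ends, a median of 46.2% of a hub's partners held a start, against 50% for the other anchors.

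In WT cells 850 hubs (58.3%) overlapped an anchor of the WT pool by at least 1 base, against 4629 of the other anchors (37.6%). With at least 50% of the KO anchor covered the order turned, to 18.7% and 26.3%, and hubs are wider. Hubs that overlapped a WT anchor had a median of 2 WT partners joined by at least 2 PETs, and the other anchors 0. WT partners were counted over all WT anchors that a KO anchor overlaps, and contacts among those were not left out. Wide anchors can therefore count more. Of WT anchors with 5 or more partners 129 of 184 (70.1%) overlapped a hub, against 676 of 3217 (21.0%) of those with 1 to 4.

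Pairs between hubs were seen in the WT pool, with 1 PET or more, in 17.9% of cases. The share was 10.2% for pairs between a hub and another anchor and 8.10% for pairs between other anchors. Hub pairs carry more PETs in KO, and the share was higher for pairs of more PETs in all 3 kinds. Pairs of 2 PETs were seen in WT in 8.57% of cases between hubs and 5.77% between other anchors, and pairs of 20 or more in 30.9% and 19.1%.

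Where both ends lay in WT anchors the order was different: 47.6% of pairs between hubs, 39.99% of hub-to-other pairs and 45.3% of other pairs were seen. At 2 PETs the shares were 23.2% between hubs and 31.9% between others, and at 20 or more 86.1% and 88.5%. Hub pairs are longer at each PET class (medians of 259 against 89.5 kb at 2 PETs). With 1 pool per genotype and 35189 WT PETs, no gain or loss of a hub can be read from these shares.

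**Figure D4:**
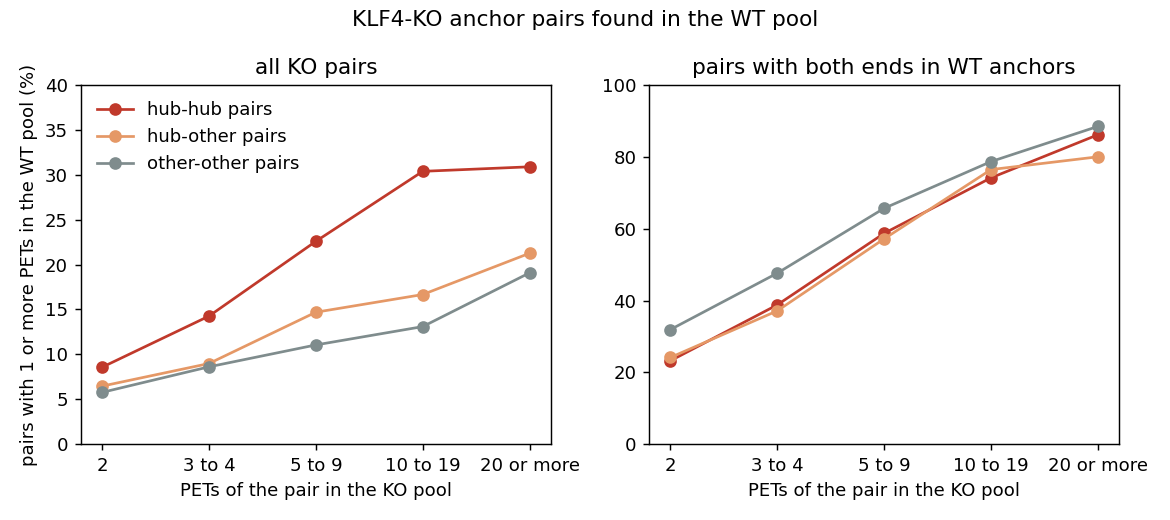
Percentage of KLF4-KO anchor pairs with 1 or more PETs in the WT pool, by the pair's PETs in KO, over all pairs (left, axis to 40%) and over pairs whose ends both lie in WT anchors (right, axis to 100%). Each point is a share of pairs of 1 pool, without replicates; pairs between hubs (red) stand above the others on the left, from 8.57% to 30.9%, and below pairs between other anchors (grey) on the right.

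The WT pool itself had 29 anchors with 10 or more partners, and 23 of these overlapped a KO hub. Of the 29, 13 hold replication-dependent histone genes of the cluster on chromosome 13, which make the histones for newly copied DNA. The highest, chr13:23568609-23577566 (H2ac7, H2ac8, H2bc7, H2bc8 and H3c4), had 19 partners in WT, and the KO anchor it overlaps had 12. The anchor at H2ac10 had 16 in WT and 22 in KO, and that at the nuclear RNA Malat1 had 13 and 24. Chromosome 13 held 5.81% of WT PETs and 2.97% of KO PETs. Anchors were listed separately in each pool, and 1 KO anchor can cover several WT anchors. The KO anchor at H2ac11, for example, overlaps 2 WT anchors, with 12 and 10 partners. Partner numbers of the 2 pools are therefore not like for like. With 1 pool per genotype, no gain or loss can be read from them or from the PET shares.

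Genes at hubs were then read in the RNA-seq libraries, which the rule did not use. Of 1065 RefSeq genes starting in a hub, 880 are protein-coding and 185 long noncoding. A total of 969 matched the count table and 888 passed the filter on low counts. In bulk libraries, fewer cells of a kind and less RNA per cell cannot be told apart.

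Hub genes were not called more often than genes at large. With edgeR, 23 of 888 were higher in KO (2.59%) and 36 lower (4.05%), against 2.96% and 5.34% of all 15517 tested genes, and 6.64% against 8.3% in both directions. Among 5212 tested genes at the other anchors 97 were higher and 177 lower (5.26%), and among 4798 at no partnered anchor 210 and 376 (12.2%). The median log2 fold change was -0.02 for hub genes, 0.03 for genes at other anchors and -0.00 for all. The share called at hubs was thus below that of all tested genes and above that at the other anchors.

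The number of calls moved with single libraries and with the filter. Without KO library B 14 hub genes were higher and 19 lower, without F 10 and 20, without WT replicate 1 45 and 90, and without WT replicate 2 36 and 47. In these 4 fits 3.66%, 3.33%, 15.0% and 9.25% of hub genes were called, against 6.14%, 6.19%, 15.5% and 9.54% of all tested genes. With no filter on low counts edgeR called 0 hub genes, with 175 at an unadjusted p under 0.05, and 2 genes in all. DESeq2 with the filter called 39 higher and 55 lower, 10.6% of hub genes and 10.6% of all tested genes.

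The called share was larger at hubs with more partners, at 29 of 547 tested genes (5.30%) for 10 to 14 partners, 14 of 205 (6.83%) for 15 to 19 and 16 of 136 (11.8%) for 20 or more. The last count rests on 8 higher and 8 lower genes, and genes that share an anchor are not independent. Over all tested genes the called share was 8.3%, and over hub genes with 15 or more partners it was 8.80%. The trend was not tested.

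Chromosome 14 stood apart in expression. Of its 345 tested genes 9 were higher and 60 lower, with a median log2 fold change of -0.66, and of its 19 hub genes none was higher and 8 were lower, with a median of -1.20. Its share of PETs was 2.71% in KO and 1.97% in WT. Without chromosome 14, a choice made after seeing the data, 23 hub genes were higher and 28 lower among 869 (5.87%), against 8.05% of tested genes with a promoter window.

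On chromosome 11, with most hubs, edgeR called 0 of 132 hub genes, with 19 at an unadjusted p under 0.05. DESeq2 called 4 higher and 1 lower there, and limma voom 1 higher. Over all genes of chromosome 11 edgeR called 18 higher and 34 lower of 909 (5.72%). On chromosome 17 edgeR called 0 of 92, with 14 at an unadjusted p under 0.05, DESeq2 3 and voom 0, against 5 higher and 11 lower of all 576 tested there (2.78%). On chromosome 7 edgeR called 3 of 140 hub genes, all lower, against 26 higher and 55 lower of all 960 (8.44%).

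Genes at the 20 leading hubs included 26 tested genes, of which edgeR called 5 (19.2%), 2 higher and 3 lower, against 8.3% of all tested genes. DESeq2 called 4 higher and 3 lower, and voom 3 and 3. Mcl1 measured 353 and 329 CPM in WT and 934 and 632 CPM in KO, a log2 fold change of 1.20 ± 0.28 (SE, edgeR FDR 0.038). Both KO libraries lay above both WT libraries, and with KO library B or F left out its FDR was 0.34 or 0.059. Mkrn1 measured 497 and 639 CPM in WT and 1365 and 1230 CPM in KO (log2 1.19, edgeR FDR 0.034, and 0.19 or 0.15 with KO library B or F left out). Arih2, a ubiquitin ligase gene, measured 396 and 377 CPM in WT and 135 and 146 CPM in KO (log2 -1.46, edgeR FDR 0.011, and 0.095 or 0.073 with KO library B or F left out).

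Slc25a20, the mitochondrial carrier of acylcarnitines, shares the anchor of Arih2. It fell from 140 and 180 CPM to 41.0 and 49.4 CPM (log2 -1.83 ± 0.26, edgeR FDR 0.0073). Ptges, which makes prostaglandin E2, fell from 63.1 and 67.3 CPM to 11.98 and 23.3 CPM (log2 -1.88 ± 0.35, edgeR FDR 0.017, and 0.064 with KO library B left out). The noncoding gene Gm52550 starts at base 30903255 on the plus strand and Ptges at base 30903297 on the minus strand. By these starts the genes run apart and overlap only between them. Reads in that short overlap cannot be told apart without the strand setting.

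The leading hub held no called gene. All 7 of its genes had both KO libraries above both WT libraries, as did 218 of 888 hub genes and 4036 of all 15517 tested genes. The 7 genes share 1 anchor and are not independent. Eif4a1 measured 1437 and 1855 CPM in WT and 2146 and 1967 CPM in KO (edgeR FDR 0.54). Senp3, a SUMO protease gene, measured 362 and 379 CPM in WT and 602 and 676 CPM in KO (edgeR FDR 0.089). Tnfsfm13 had 0 and 3 counts in WT and 15 and 16 in KO, a depth-scaled ratio of summed counts of 11.4 (95% interval 3.57 to 58.5, counting error only, edgeR FDR 0.062). It overlaps Tnfsf13, so its count is uncertain. At the second hub Tbc1d10b measured 106 and 114 CPM in WT and 122 and 118 CPM in KO, and Zfp553 116 and 114 CPM against 61.2 and 84.6 CPM (edgeR FDR 0.78 and 0.16). Lasp1 overlapped between genotypes, at 249 and 236 CPM in WT and 212 and 255 CPM in KO.

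Of all hub genes, the 10 named with the largest rises in KO were a histone gene, a zinc finger gene, noncoding RNAs, enzymes and receptors. H2ac10, in an 8.409 kb anchor with 22 partners, measured 0.213 and 0.326 CPM in WT and 3.35 and 2.01 CPM in KO (log2 3.25 ± 0.69, edgeR FDR 0.028). Its WT level rests on a few counts, and its FDR was 0.15 without KO library B and 0.056 without WT replicate 1. Halr1 (12 partners) rose from 9.24 and 12.3 CPM to 55.5 and 76.9 CPM (log2 2.62 ± 0.31, edgeR FDR 0.0039). The anchor of Halr1 is a partner of the Mkrn1 hub.

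Rarg, a nuclear receptor for retinoic acid (21 partners), rose from 50.6 and 58.5 CPM to 206 and 235 CPM (log2 2.01 ± 0.24, edgeR FDR 0.0041). Its anchor is a partner of the Sp1 hub. S1pr2, a receptor for sphingosine-1-phosphate (24 partners), rose from 25.4 and 23.2 CPM to 70.8 and 81.1 CPM (log2 1.64, edgeR FDR 0.0097), and its anchor is a partner of the Dnm2 hub. B3gnt7, a glycosyltransferase gene (14 partners), rose from 27.7 and 31.98 CPM to 108 and 106 CPM (log2 1.84, edgeR FDR 0.0057). In all 3 genes the genotypes did not overlap, as the rule that named them required.

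Etfbkmt, a mitochondrial protein methyltransferase gene (24 partners), rose from 2.23 and 2.61 CPM to 15.6 and 12.4 CPM (log2 2.53, edgeR FDR 0.010). Prss50, a serine protease gene (11 partners), rose from 3.29 and 5.00 CPM to 20.4 and 18.95 CPM (log2 2.24, edgeR FDR 0.012). Prdm10, a PR domain zinc finger gene (10 partners), rose from 31.985 and 18.4 CPM to 74.6 and 66.9 CPM (log2 1.49, edgeR FDR 0.028). Its WT libraries stood farther apart than its KO libraries.

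Platr22 and Gapdh also depended on single libraries. Platr22, a long noncoding RNA (10 partners), measured 0.956 and 0.544 CPM in WT and 2.99 and 4.62 CPM in KO (edgeR FDR 0.0497). It lost the call with DESeq2, library totals, voom and a stricter filter (0.051 to 0.061), and without KO library F (0.25) or WT replicate 2 (0.15). Gapdh, the glycolytic enzyme (13 partners), measured 33.2 and 34.9 CPM in WT and 126 and 75.6 CPM in KO (edgeR FDR 0.020, and 0.13 with KO library B left out). Gapdh has many near-identical pseudogenes, so its count is uncertain.

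Of the 10 named hub genes with the largest falls, 6 lie on chromosome 14. Nynrin (15 partners) fell from 88.6 and 55.9 CPM to 5.03 and 9.95 CPM (log2 -3.27 ± 0.41, edgeR FDR 0.0045). Sncg and Fam25c share a 34.757 kb anchor with 19 partners and no WT anchor. Sncg fell from 8.82 and 10.6 CPM to 1.68 and 0.948 CPM and Fam25c from 24.3 and 52.3 CPM to 8.62 and 6.04 CPM (edgeR FDR 0.012 and 0.016).

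Zfhx2, a zinc finger homeobox gene (24 partners), fell from 128 and 89.2 CPM to 13.3 and 28.9 CPM (log2 -2.36, edgeR FDR 0.012). Zswim8, a ubiquitin ligase receptor that acts in microRNA decay (12 partners), fell from 49.5 and 37.4 CPM to 10.2 and 12.3 CPM (log2 -1.95, edgeR FDR 0.0097). Tm9sf1 (10 partners) fell from 33.2 and 27.2 CPM to 7.07 and 9.36 CPM (log2 -1.88, edgeR FDR 0.014). All 6 share the lower level of their chromosome, whose part in these falls was not tested.

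Off chromosome 14, Slc25a20 and Ptges were joined by Cmtm7 and Zfp628. Cmtm7, a membrane protein gene on chromosome 9 (10 partners), fell from 115 and 179 CPM to 26.4 and 34.6 CPM (log2 -2.27 ± 0.31, edgeR FDR 0.0059). Zfp628, a zinc finger gene on chromosome 7 (17 partners), fell from 19.1 and 23.8 CPM to 5.27 and 6.40 CPM (log2 -1.88 ± 0.34, edgeR FDR 0.016). Neither overlapped between genotypes, as the rule that named them required. The other 13 higher hub genes rose 2.17- to 3.48-fold and the other 26 lower ones fell 1.91- to 3.36-fold.

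**Figure D5:**
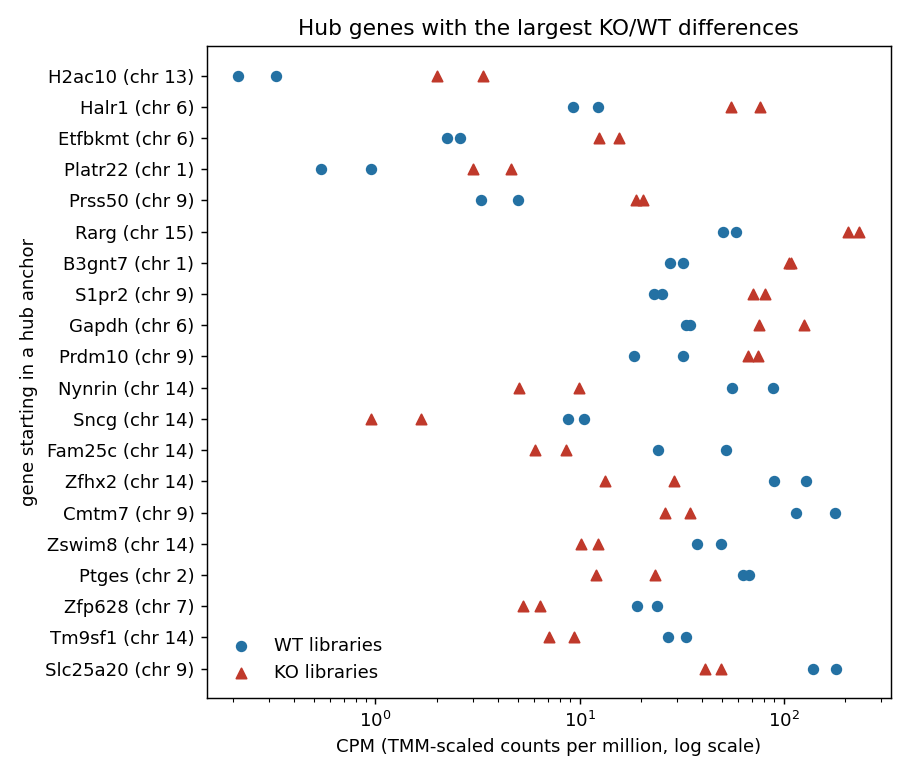
CPM on a log axis in the 2 WT libraries (blue circles) and 2 KLF4-KO libraries (red triangles) for the 20 named hub genes called by edgeR, with the chromosome of each. In none do the genotypes overlap, by the rule that named them, and 6 of the 10 lower genes lie on chromosome 14.

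Gene lists chosen with earlier results known were placed on the hubs. List members without a promoter window could not be placed and are left out of the shares. Over all 27025 genes with a promoter window 3.94% start in a hub, and over the 10898 of them tested for expression 8.15% do. Of replication-dependent histone genes 38 of 57 did (66.7%), and these 38 genes share 11 hubs. Of 11 tested, 1 was higher (H2ac10) and none lower, with a median log2 fold change of -0.34. That is 9.09% called, near the 8.3% of all tested genes. H2ac11, H2ac12, H2bc11, H2bc12 and H4c9 share 1 anchor of 13.176 kb with 27 partners, the most of any histone anchor, and histone genes have near-identical copies that make their counts uncertain.

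Ribosomal protein genes started in hubs in 25 of 65 cases (38.5%). Rpl23 and Rps2 led them, with 26 and 22 partners. Of the 25, edgeR called 0, with 1 at an unadjusted p under 0.05, and DESeq2 and voom called 0. Their median log2 fold change was -0.40, and Rps2 measured 3047 and 5120 CPM in WT and 2960 and 2135 CPM in KO (edgeR FDR 0.29). Counts of these genes are also uncertain because of processed pseudogenes.

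Of 10 polymerase subunit genes, 3 start in hubs. Polr2e had 18 partners, Polr2a, the largest subunit, 16, and Polr2h 15. For all 3 the genotypes overlapped, edgeR called 0 with 0 at an unadjusted p under 0.05, and DESeq2 and voom called 0. Of 14 loop factor genes, the Mediator subunit gene Med1 (11 partners) and the LIM-binding looping factor gene Ldb1 (10 partners) start in hubs, with none called by edgeR, DESeq2 or voom and 0 at an unadjusted p under 0.05. With 8.3% of all tested genes called by edgeR, lists this small cannot show that their genes are stable.

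Of 37 listed pluripotency and stem cell enhancer-linked genes, 24 had a promoter window, and 5 of these start in hubs (20.8%). Nanog and Tet1 had 22 partners each, Pou5f1 21, Trim28 13 and Tdgf1 11. Nanog and Pou5f1 encode core pluripotency factors. Nanog measured 784 and 774 CPM in WT and 621 and 572 CPM in KO (edgeR FDR 0.39), and Pou5f1 1196 and 2011 CPM against 1759 and 1546 CPM (edgeR FDR 0.95). The Nanog hub had 3 WT anchors, which together had 9 WT partners of 2 or more PETs. The Pou5f1 hub had 2 WT anchors and 1 such partner.

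Tet1, a 5-methylcytosine oxidase, measured 273 and 132 CPM in WT and 445 and 605 CPM in KO (log2 1.38 ± 0.37, edgeR FDR 0.057). Tdgf1, a NODAL co-receptor, measured 476 and 508 CPM in WT and 914 and 839 CPM in KO (edgeR FDR 0.080). EdgeR called none of the 5, with 2 at an unadjusted p under 0.05, against 8.3% of all tested genes called. DESeq2 called 2 higher and voom 0. Sox2, Klf2 and Lin28a start in other anchors.

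Of 22 HOX genes 1 starts in a hub, Hoxa5 (16 partners), which did not pass the filter on low counts. No hub held the start of any of 12 immediate early genes, 15 early neural genes or 4 Y-linked genes. Of these, 4 immediate early genes and Zic5 start in other partnered anchors.

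Promoters at hubs resembled those at other anchors in base composition. Over 1330 windows at hubs the median GC content was 60% with 21 CpG, against 62% and 22 over 7163 windows at the other anchors, and 52.7% and 7 over all 32851. A GC box was found in 61.7% of hub windows, 66.1% of other-anchor windows and 35.7% of all, on either strand. The KLF letters GGGNGTGG were found in 22.3%, 23.1% and 17.6%. A match is only a match of letters, not a bound site.

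Of the other motifs, the TATA box differed most in proportion between hub and other-anchor windows. The ETS letters CCGGAAG were in 18.1% of hub, 21.0% of other-anchor and 8.86% of all windows, the NRF1 motif in 10%, 11.8% and 4.60%, and the E-box CACGTG in 11.1%, 10.7% and 7.15%. The TATA box TATAAA was in 8.87% of hub windows, 5.43% of other-anchor windows and 13.6% of all. The octamer ATGCAAAT was in 1.58%, 1.30% and 1.74%. Windows that share an anchor or a gene are not independent, and none of these differences was tested.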

How the data were processed

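Expression was measured by RNA-seq in 2 WT and 2 KO libraries and RNA polymerase II contacts by HiChIP (fragments of 300 to 700 bp, reads of 150 bp) in 2 samples per genotype, pooled by the authors into 1 file each. The submitters' processing notes name HiC-Pro 2.11.4, DESeq2 1.18.1, HTSeq 0.9.1, HISAT2 2.1.0 and the build mm10. The deposited values are raw counts: whole read numbers for each Ensembl gene, and PETs per pair of anchors. Annotation release, strand setting, loop caller, anchor peaks and filters were not given in the sources used here. Anchors were listed separately in each pool.

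Hubs, partners, neighbours (centres within 500 kb), runs (100 kb) and overlaps were computed with Python 3.11.15, and coordinates are given from 1. Anchors of 1 pool are not replicates, so shares over anchors are descriptions without a test. Gene starts and sequences came from RefSeq windows (GRCm38.p6), which cover 17492 of 21900 protein-coding genes (79.9%) and no start on chromosome 18. Of these genes 20654 matched the count table by identifier. HTSeq's summary records were left out, and gene counts made up 34.5% to 36.0% of all records.

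KO was compared with WT by edgeR 4.0.16 (R 4.3.3): TMM scaling, the filterByExpr filter and the quasi-likelihood F-test on 15517 of 52636 genes, genotype as the only term, Benjamini-Hochberg adjustment and a threshold of 0.05. The fit had 2 residual degrees of freedom and a common biological coefficient of variation of 0.256. The script was tested on simulated data. The labels call the libraries biological replicates. CPM are counts relative to the TMM-scaled library size. A fold against 0 counts uses a floor of 3 counts over the group. Alternatives were DESeq2 1.42.0, voom of limma 3.58.1, other scalings and filters, each library left out, and other hub definitions. Named genes are those at the 20 leading hubs, the 10 higher and 10 lower called hub genes with the largest log2 fold change (at least 2 CPM in 1 genotype, genotypes not overlapping, no predicted genes, Rik clones or pseudogenes), list members at hubs (the 6 with most partners where more than 12), and Klf4. Members, lists and the rule were chosen with earlier results of these data known. Exon lengths were not used here, so levels are not compared between genes.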

Additional observations from a re-analysis of the deposited data

How the results depend on the processing

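The number of hubs depends on the thresholds. Against 1458, it was 497 with pairs of at least 3 PETs, 2304 from 8 partners, 472 from 15 partners and 954 with partners at least 20 kb away. The share of hubs with a gene start (52.5%) was 61.4% with starts within 5 kb, 59.3% from 15 partners, 55.7% with 3 PETs and 47.9% for protein-coding genes alone. The share overlapping a WT anchor (58.3%) was 18.7% when 50% of the hub had to be covered and 43.1% with WT anchors that had a partner of 2 PETs. The count of higher hub genes (23) was 39 with DESeq2, 0 with no filter, 11 from 15 partners, 10 and 14 without KO library F or B, and 36 and 45 without WT replicate 2 or 1. The count of lower hub genes (36) was 55, 0, 19, 20, 19, 47 and 90 in the same settings and order. The median log2 fold change of hub genes (-0.02) ranged from -0.16 without WT replicate 1 to 0.073 without WT replicate 2. The causes were not tested. Of 29 called genes named, 16 kept the call in all 9 settings other than no filter, where none passed, and none changed direction. A fit with 1 library of a genotype assumes that it varies like the other group. No paired analysis was possible because the KO count columns carry the letters B and F and no replicate number. Depth limits the WT contacts, at 35189 PETs.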

Other observations

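Values of 6 called hub genes outside the naming rule, chosen after their values were seen, are given here. Keap1, the sensor that holds NRF2 in check and a partner of the Dnm2 hub, measured 41.1 and 43.1 CPM in WT and 16.6 and 21.0 CPM in KO (log2 -1.16, edgeR FDR 0.039). Nqo1, a quinone reductase gene, measured 27.4 and 30.3 CPM in WT and 7.43 and 13.6 CPM in KO (log2 -1.45, edgeR FDR 0.046). Gpx1, a glutathione peroxidase gene and a partner of the hub at Arih2, measured 189 and 344 CPM in WT and 94.9 and 115 CPM in KO (log2 -1.34, edgeR FDR 0.040).

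The transcription factor gene Ddit3 measured 81.8 and 132 CPM in WT and 48.2 and 27.8 CPM in KO (log2 -1.49, edgeR FDR 0.038), and Atf5 112 and 125 CPM against 43.1 and 55.8 CPM (log2 -1.26, edgeR FDR 0.022). In the other direction the glycolytic enzyme gene Eno1 measured 822 and 1140 CPM in WT and 2827 and 2221 CPM in KO (log2 1.36, edgeR FDR 0.032), and Eno1 has near-identical copies that make its count uncertain. All 6 genes lost the call without 1 of the KO libraries. Without KO library B the edgeR FDR was 0.28 for Keap1, 0.25 for Nqo1, 0.17 for Gpx1, 0.22 for Atf5 and 0.17 for Eno1. Without KO library F it was 0.12 for Keap1, 0.071 for Gpx1, 0.20 for Ddit3, 0.069 for Atf5 and 0.066 for Eno1. With library totals only it was 0.051 for Keap1 and 0.061 for Nqo1.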
